A study of Mus musculus with 23 samples.

Results

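Rhox5, Eppin, Tubb3, Serpina5 and Drd4 are genes that Sertoli cells, the somatic nurse cells inside the seminiferous tubules, express under control of the androgen receptor. They were taken by name as known targets of that receptor. All 5 were found among the 27466 genes of the count table, and all 5 passed the filter on low counts (19255 genes tested). RNA was sequenced from whole testes of wild-type CD-1 mice and from explants of such testes grown in organotypic culture. The in vivo testes were 6.5, 10.5, 22.5 or 36.5 days postpartum (dpp). The explants came from 6.5 dpp testes and were grown for 4, 16 or 30 days (D4, D16, D30), so that D4 is matched in age by the 10.5 dpp testis, D16 by 22.5 dpp and D30 by 36.5 dpp. CSF marks tissue that went through controlled slow freezing and thawing, which held for some 6.5 dpp testes and for 1 of the D30 libraries. The culture medium held retinol and knockout serum replacement, and the methods state no added testosterone or gonadotropin. Each explant library pooled several explants after their necrotic centre was cut away.

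Of 23 columns, 21 libraries were used: 12 of testes and 9 of explants. The testes gave 4 libraries at 6.5 dpp (1 fresh, 3 CSF), 3 each for 10.5 and 22.5 dpp and 2 for 36.5 dpp, and the explants gave 3 for D4, 2 for D16 and 4 for D30 (3 fresh, 1 CSF). The library labelled 6.5 dpp fresh replicate 1 was left out because its profile across genes was nearer to D16 replicate 1 (Spearman correlation 0.985) than to 6.5 dpp fresh replicate 2 (0.928). Fresh replicate 3 of that age holds the same count as fresh replicate 2 for every gene, and the pair was counted as 1 sample. Totals of the libraries used ran from 28351546 to 69029328 counts. The labels do not say whether the libraries of a group came from separate animals, so the p-values measure the spread between these libraries.

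Testosterone is made by Leydig cells, which lie between the tubules, from cholesterol and under the action of luteinizing hormone. It enters Sertoli cells and binds the androgen receptor, which then moves to the nucleus and binds DNA at androgen response elements, pairs of inverted half-sites. Germ cells lack a working receptor of their own, so androgen acts on spermatogenesis through somatic cells, and the Sertoli targets come on as these cells mature during puberty. Rhox5, an X-linked homeobox transcription factor, is the classical androgen-dependent gene of Sertoli cells. Eppin encodes a protease inhibitor that coats sperm, Serpina5 encodes the serine protease inhibitor also called protein C inhibitor, Tubb3 encodes a class III beta tubulin of microtubules, and Drd4 encodes the D4 dopamine receptor, a membrane receptor coupled to G proteins.

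In GRCm38, Rhox5 (gene 18617) lies on chromosome X at 37754608-37808878 by RefSeq, Eppin (75526) on chromosome 2 at 164588343-164593571, Tubb3 (22152) on chromosome 8 at 123411553-123422015, Serpina5 (268591) on chromosome 12 at 104099313-104106138 and Drd4 (13491) on chromosome 7 at 141291974-141296464. Their exons overlap no other GENCODE gene, and 0% of their 50-base stretches occur in the transcript of another gene. The 250 bases before the transcription start that the RefSeq promoter table gives each gene were searched for the response element, that is AGAACA and, after any 3 bases, TGTTCT, which reads alike on both strands, allowing up to 2 mismatches at the 12 fixed bases, and for its half-site AGAACA or TGTTCT. Of 32817 such windows over the genome's genes, 1.55% hold the element at that tolerance and 16.1% a half-site. The Eppin window holds the element with 2 mismatches, starting 94 bases before that start. The Serpina5 window, which lies inside the RefSeq gene and ends at the GENCODE start, holds 1 half-site. The Drd4 window, which runs past the outermost RefSeq start, holds neither element nor half-site. Nor does the Tubb3 window, whose last 129 bases lie inside the GENCODE gene. The Rhox5 window holds a half-site, but it lies 50234 bases from the GENCODE start of that gene. The upstream stretches of Eppin (chr2:164593595-164593821, minus strand, up to the GENCODE start) and Serpina5 (chr12:104100863-104101112, plus strand) are shown because these genes have the element or a half-site beside their start. Capitals mark the Serpina5 half-site and the whole Eppin site, with its 2 mismatched bases and its 3 free bases in the middle:
Eppin upstream: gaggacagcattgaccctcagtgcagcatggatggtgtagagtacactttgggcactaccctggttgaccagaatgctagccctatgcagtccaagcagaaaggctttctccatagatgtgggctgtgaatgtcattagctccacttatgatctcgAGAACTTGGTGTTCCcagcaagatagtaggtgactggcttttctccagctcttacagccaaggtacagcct
Serpina5 upstream: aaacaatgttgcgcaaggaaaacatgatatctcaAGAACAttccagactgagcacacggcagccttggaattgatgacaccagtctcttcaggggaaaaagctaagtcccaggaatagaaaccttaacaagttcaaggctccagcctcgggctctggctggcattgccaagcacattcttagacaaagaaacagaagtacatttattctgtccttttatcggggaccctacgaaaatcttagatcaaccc
A match of letters is a description of the sequence and does not show binding.

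**Figure D1:**
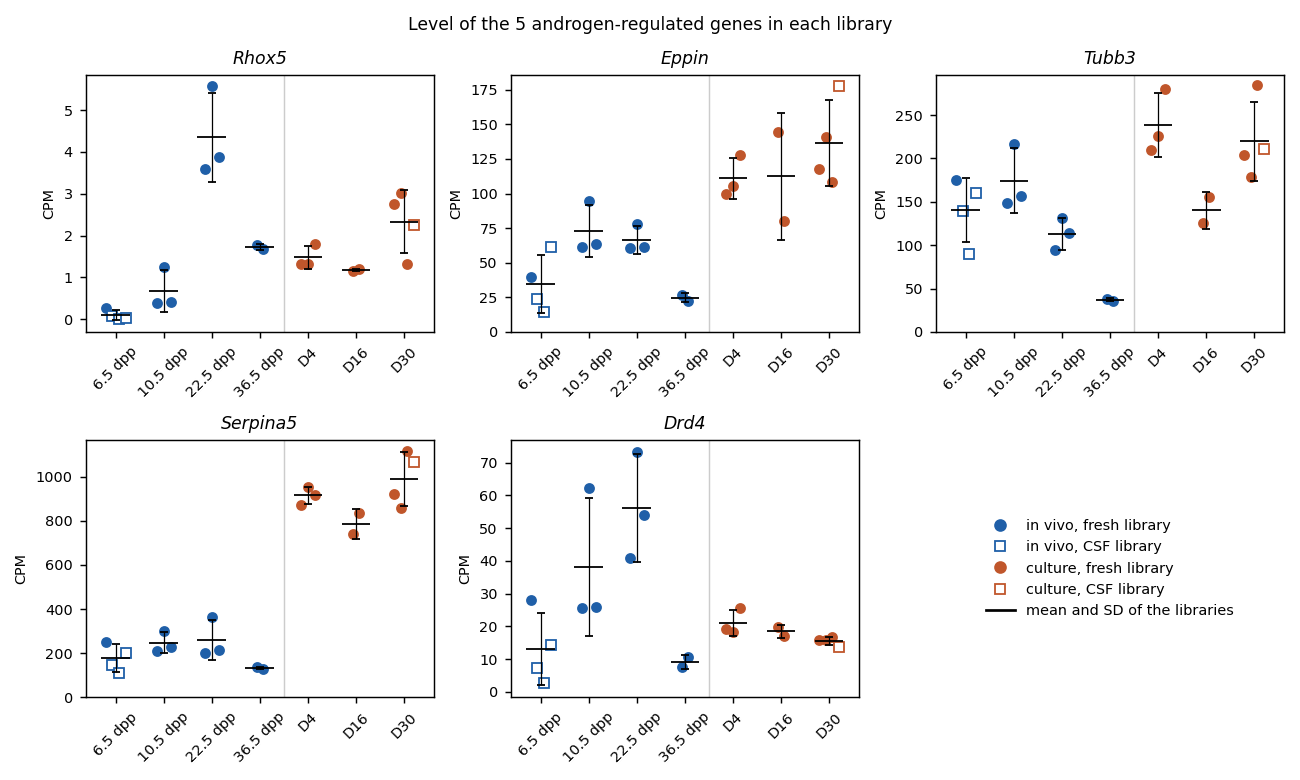
CPM (counts scaled to the library total) of each gene in each of the 21 libraries, by age in vivo (blue) and day in culture (orange). Filled circles are fresh libraries, open squares CSF libraries, and the line and bar give the mean and SD. Serpina5 sits between 738 and 1117 CPM in all 9 culture libraries and between 108 and 365 CPM in all 12 in vivo libraries, while Rhox5 and Drd4 peak at 22.5 dpp.

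Per kilobase of exon, Serpina5 had the highest mean level of the 5 transcripts at all 7 stages. At 22.5 dpp the levels were 120.2 ± 42.4 CPM per kb for Serpina5, 85.5 ± 13.1 for Eppin, 60.5 ± 9.85 for Tubb3, 16.6 ± 4.85 for Drd4 and 5.77 ± 1.42 for Rhox5 (SD, n = 3). At D30 they were 458.3 ± 56.4 for Serpina5, 175.1 ± 39.8 for Eppin, 117.6 ± 24.3 for Tubb3, 4.59 ± 0.405 for Drd4 and 3.10 ± 0.996 for Rhox5 (SD, n = 4). The spread between the most and the least abundant gene was thus wider at D30 than at 22.5 dpp. At 36.5 dpp, the age match of D30, Serpina5 had 61.5 ± 2.72 and Rhox5 2.29 ± 0.103 CPM per kb (SD, n = 2). A wide spread was not particular to explants: at 6.5 dpp Serpina5 had 81.9 ± 29.2 and Rhox5 0.129 ± 0.160 CPM per kb (SD, n = 4).

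In vivo, the members did not share 1 course. Rhox5 stood at 0 to 0.27 CPM in the 4 libraries of 6.5 dpp (0 to 13 counts), with 0 counts in CSF replicate 2. It reached 0.38, 1.25 and 0.40 CPM at 10.5 dpp, 3.59, 5.57 and 3.89 CPM at 22.5 dpp, and 1.78 and 1.67 CPM at 36.5 dpp. The 22.5 dpp libraries lay above all others in vivo and in culture, and the ranges of the in vivo ages did not overlap (12.2% of all genes lay wholly higher at 10.5 than at 6.5 dpp, 33.3% wholly higher at 22.5 than at 10.5 dpp and 52.1% wholly lower at 36.5 than at 22.5 dpp). Between 10.5 and 22.5 dpp Rhox5 rose by 2.98 on the log2 scale (standard error 0.57, adjusted p = 0.000223), the sole member called in that step (1 of 5), where 61.5% of all genes tested were called and 33.6% were called higher.

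Drd4 had 27.9 CPM in the fresh 6.5 dpp library and 7.13, 2.63 and 14.2 CPM in the CSF libraries of that age. It had 25.6, 62.4 and 26.0 CPM at 10.5 dpp, 40.8, 73.4 and 54.2 CPM at 22.5 dpp, and 7.63 and 10.5 CPM at 36.5 dpp. Its highest libraries were thus those of 22.5 dpp and 10.5 dpp replicate 2, and these 2 ages overlapped. From 22.5 to 36.5 dpp Drd4 fell by 2.10 on the log2 scale (standard error 0.65, adjusted p = 0.0121), a call that was lost without 36.5 dpp replicate 1 (adjusted p = 0.103).

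Tubb3 had 175, 139, 89.7 and 160 CPM at 6.5 dpp (fresh first), 149, 217 and 156 CPM at 10.5 dpp, and 94.1, 131 and 114 CPM at 22.5 dpp. It ended at 38.1 and 36.1 CPM at 36.5 dpp, below every other library used. From 22.5 to 36.5 dpp it fell by 1.09 on the log2 scale (standard error 0.26, adjusted p = 0.0026). Tubb3 and Drd4 were the 2 members called between these ages, both lower, where 50.7% of all genes tested were called and 27.5% were called lower.

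Eppin and Serpina5 passed the test at no step between neighbouring ages in vivo. Eppin had 39.7, 23.7, 14.1 and 61.6 CPM at 6.5 dpp (fresh first), 61.1, 94.9 and 63.6 CPM at 10.5 dpp, 60.4, 78.3 and 61.0 CPM at 22.5 dpp, and 26.9 and 22.6 CPM at 36.5 dpp. Serpina5 had 252, 146, 108 and 202 CPM at 6.5 dpp, 211, 301 and 229 CPM at 10.5 dpp, 201, 365 and 213 CPM at 22.5 dpp, and 137 and 129 CPM at 36.5 dpp. For both genes the ranges of 10.5 and 22.5 dpp overlapped and 36.5 dpp was lower than 22.5 dpp in every library (log2 differences of -0.91 and -0.44), as for 52.1% of all genes.

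Between 6.5 and 10.5 dpp 0 of the 5 members were called by edgeR's quasi-likelihood test, where 1.14% of all genes were. At an unadjusted p under 0.05 there were 3 (Rhox5, Eppin and Drd4), and DESeq2 called 1, Rhox5. The Rhox5 difference was 2.58 on the log2 scale (standard error 0.62, adjusted p = 0.0517 by edgeR). The 10.5 dpp libraries were all fresh while 3 of the 4 libraries at 6.5 dpp were CSF, so this step mixes age with freezing. Among the 6.5 dpp libraries the fresh one was highest for Rhox5 (0.27 CPM) and Drd4 (27.9 CPM). For Eppin it had 39.7 CPM, below the 61.6 CPM of CSF replicate 3.

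The 8 Sertoli cell markers (Sox9, Wt1, Gata4, Cldn11, Fshr, Dhh, Aard and Clu) fell in vivo after 10.5 dpp. Their summed level was 3989 to 5724 CPM at 6.5 dpp and 6319 to 6579 CPM at 10.5 dpp, with 0 of 8 called between these ages. It was 1865 to 3301 CPM at 22.5 dpp and 870.3 to 1042 CPM at 36.5 dpp. All 8 were called lower at 22.5 than at 10.5 dpp, where 27.9% of all genes were. In culture the sum lay between 6171 and 10480 CPM from D4 to D30. Most of it was Clu, which averaged 6387, 4892 and 5626 CPM at D4, D16 and D30. By edgeR 0 of 8 markers were called from D4 to D16 or from D16 to D30, with median log2 differences of -0.40 and -0.016. Spermatid markers (Prm1, Prm2, Tnp1, Tnp2 and Acrv1) summed to 16420 to 21330 CPM at 36.5 dpp and to 345.6 to 1635 CPM at D30. In such bulk samples, fewer cells of a type, less RNA per cell and more RNA from other cells in the library total cannot be told apart. Of 8 epididymis markers 6 or 7 were at the floor (at most 3 counts per library) at every stage, and the defining lipocalins Lcn5, Lcn8 and Lcn9 were among them. Cst8, also on that list, stood at 177.1 and 433.5 CPM at 36.5 dpp against 16.3 to 41.8 CPM at D30, and Rnase10 averaged 8.97 CPM at 22.5 dpp and 10.1 CPM at 36.5 dpp.

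**Figure D2:**
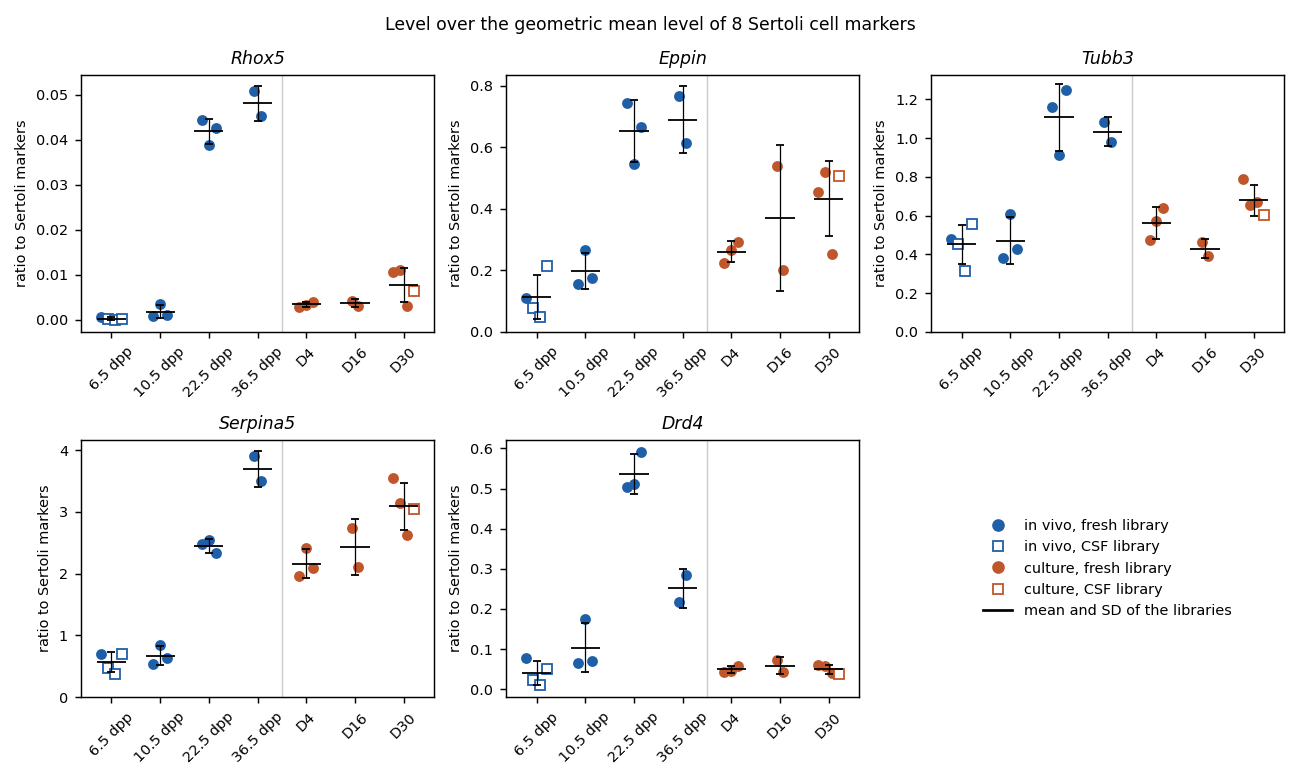
Level of each gene divided by the geometric mean level of the 8 Sertoli cell markers in the same library (no unit), with symbols as in the plot of CPM. In vivo Eppin, Tubb3 and Serpina5 stand higher at 22.5 and 36.5 dpp than at 6.5 and 10.5 dpp. Rhox5 and Drd4 stand at most at 0.0111 and 0.0740 in culture, below every 22.5 and 36.5 dpp library.

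Against the Sertoli cell markers, all 5 members stood higher at 22.5 than at 10.5 dpp. The ratio of Rhox5 to the markers' geometric mean was 0.00186 ± 0.00143 at 10.5 dpp and 0.0419 ± 0.00275 at 22.5 dpp, and that of Drd4 was 0.104 ± 0.0615 and 0.536 ± 0.0489 (SD, n = 3). Eppin went from 0.198 ± 0.0588 to 0.653 ± 0.0998, Tubb3 from 0.471 ± 0.12 to 1.11 ± 0.173 and Serpina5 from 0.669 ± 0.156 to 2.45 ± 0.110 (SD, n = 3). With libraries scaled to the Sertoli cell markers in the fit, all 5 members were called higher at 22.5 than at 10.5 dpp, by 1.31 (Tubb3) to 4.60 (Rhox5) on the log2 scale (edgeR adjusted p from 5.25e-06 to 0.0026). This scaling raised the median of all genes by 1.66, 76.4% of all genes were then called higher, and Tubb3 had the opposite sign without it (-0.34).

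After 4 days of culture, Serpina5 was the sole member called against the 10.5 dpp testis. It had 873, 953 and 919 CPM at D4 against 211, 301 and 229 CPM at 10.5 dpp, with no overlap. The rise was 1.98 on the log2 scale (3.93-fold, standard error 0.27, adjusted p = 9.6e-05), and 1.70 (adjusted p = 0.0016) when scaled to the Sertoli cell markers, where 2.26% of all genes were called higher. It was 1 of 5 members called, where 8.1% of all genes tested were called, 4.92% higher and 3.18% lower. At an unadjusted p under 0.05 by edgeR there were 3 (Serpina5, Rhox5 and Tubb3), and more members were called when only the groups compared were fitted.

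The other members did not pass the test at D4. Rhox5 had 1.32, 1.32 and 1.80 CPM at D4 (log2 difference 1.24, standard error 0.55, adjusted p = 0.222). Eppin had 99.4, 106 and 128 CPM (0.68, standard error 0.40, adjusted p = 0.396) and Tubb3 had 210, 226 and 280 CPM (0.54, standard error 0.23, adjusted p = 0.187). Drd4 had 19.2, 18.2 and 25.6 CPM (-0.77, standard error 0.54, adjusted p = 0.512). The CPM ranges of Rhox5, Eppin and Serpina5 lay wholly above those of 10.5 dpp, as for 17.3% of all genes, and that of Drd4 wholly below, as for 31.2%.

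Against the tissue of origin at 6.5 dpp, 4 of 5 members were called higher at D4, where 20.9% of all genes were called, 10.8% higher and 10.1% lower. The log2 difference was 3.82 for Rhox5 (standard error 0.60, adjusted p = 0.00019), 2.38 for Serpina5 (0.24, adjusted p = 2.01e-06), 1.66 for Eppin (0.37, adjusted p = 0.0037) and 0.78 for Tubb3 (0.21, adjusted p = 0.0147). The Tubb3 call was lost without D4 replicate 3 (adjusted p = 0.0767) and under scaling to the Sertoli cell markers (0.33, adjusted p = 0.334), and the Eppin call with the library labelled 6.5 dpp fresh replicate 1 kept (1.20). Rhox5 in the 6.5 dpp libraries rests on 0 to 13 counts, so the size of its difference is uncertain. All D4 libraries were fresh while 3 of the 4 libraries at 6.5 dpp were CSF, so this comparison mixes culture with freezing. With fresh libraries alone, which leaves 1 library at 6.5 dpp, 2 of 5 were called.

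At D16 the members parted. Serpina5 had 738 and 834 CPM against 201, 365 and 213 CPM at 22.5 dpp, a rise of 1.46 on the log2 scale (2.76-fold, standard error 0.28, adjusted p = 0.0018), which was -0.04 (adjusted p = 0.92) when scaled to the Sertoli cell markers. Rhox5 had 1.16 and 1.20 CPM against 3.59, 5.57 and 3.89 CPM and fell by 2.02 on the log2 scale (standard error 0.63, adjusted p = 0.0272), or by 3.54 (adjusted p = 0.00044) when scaled to the markers, which lowered the median of all genes by 1.52 and called 74.6% of them lower. The Rhox5 call with TMM scaling was lost without 22.5 dpp replicate 1, 22.5 dpp replicate 3, D16 replicate 1 or D16 replicate 2 (adjusted p up to 0.177). With the library labelled 6.5 dpp fresh replicate 1 kept, neither gene was called (adjusted p = 0.0834 for Serpina5 and 0.188 for Rhox5). Serpina5 and Rhox5 were 2 of 5 members called, where 25.8% of all genes tested were called, 14% higher and 11.8% lower.

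Drd4 had 19.9 and 17.0 CPM at D16, below the 40.8 to 73.4 CPM of 22.5 dpp, and its log2 difference of -1.74 (standard error 0.63, adjusted p = 0.0508) did not pass. Scaled to the markers it was -3.22 (adjusted p = 0.00069). Eppin had 145 and 79.9 CPM at D16, a log2 difference of 0.61 (standard error 0.44, adjusted p = 0.304) that was -0.83 (adjusted p = 0.165) when scaled to the markers. Tubb3 had 125 and 156 CPM, a difference of 0.16 (standard error 0.25, adjusted p = 0.658) that was -1.38 (adjusted p = 0.0011) when so scaled. The ranges of Eppin and Serpina5 lay wholly above those of 22.5 dpp, as for 29.2% of all genes, and those of Rhox5 and Drd4 wholly below, as for 21.5%.

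At D30, 3 of 5 members were called higher than in the 36.5 dpp testis, where 67.4% of all genes tested were called, 32.4% higher and 35% lower. Serpina5 had 921, 857, 1117 and 1068 CPM (CSF last) against 137 and 129 CPM, a rise of 2.25 on the log2 scale (4.77-fold, standard error 0.31, adjusted p = 8.0e-06). Tubb3 had 204, 179, 284 and 211 CPM against 38.1 and 36.1 CPM, a rise of 1.92 (3.78-fold, standard error 0.27, adjusted p = 1.03e-05). Eppin had 118, 141, 108 and 178 CPM against 26.9 and 22.6 CPM, a rise of 1.82 (3.54-fold, standard error 0.46, adjusted p = 0.0020).

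These 3 rises turned into log2 differences of -0.37 for Serpina5 (adjusted p = 0.257), -0.71 for Tubb3 (adjusted p = 0.0251) and -0.80 for Eppin (adjusted p = 0.130) when libraries were scaled to the Sertoli cell markers. That scaling lowered the median of all genes by 2.60, and 87.3% of all genes were then called lower. All 8 markers were themselves called higher at D30 with TMM scaling, with log2 rises of 2.07 (Aard) to 3.34 (Fshr). The part of this marker shift in the members' rises was not tested.

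Rhox5 and Drd4 did not pass the test at D30. Rhox5 had 2.75, 3.02, 1.31 and 2.26 CPM at D30 against 1.78 and 1.67 CPM, with a log2 difference of -0.19 (standard error 0.56, adjusted p = 0.776) that was 0.43 with library size alone and -2.74 (adjusted p = 0.00025) when scaled to the Sertoli cell markers. Drd4 had 15.8, 15.9, 16.8 and 13.6 CPM against 7.63 and 10.5 CPM, with a log2 difference of 0.13 (standard error 0.57, adjusted p = 0.847) that was -2.44 (adjusted p = 0.00052) when so scaled. The Drd4 range in CPM lay wholly above that of 36.5 dpp, with those of Serpina5, Tubb3 and Eppin, as for 47.6% of all genes, and that of Rhox5 overlapped.

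**Figure D3:**
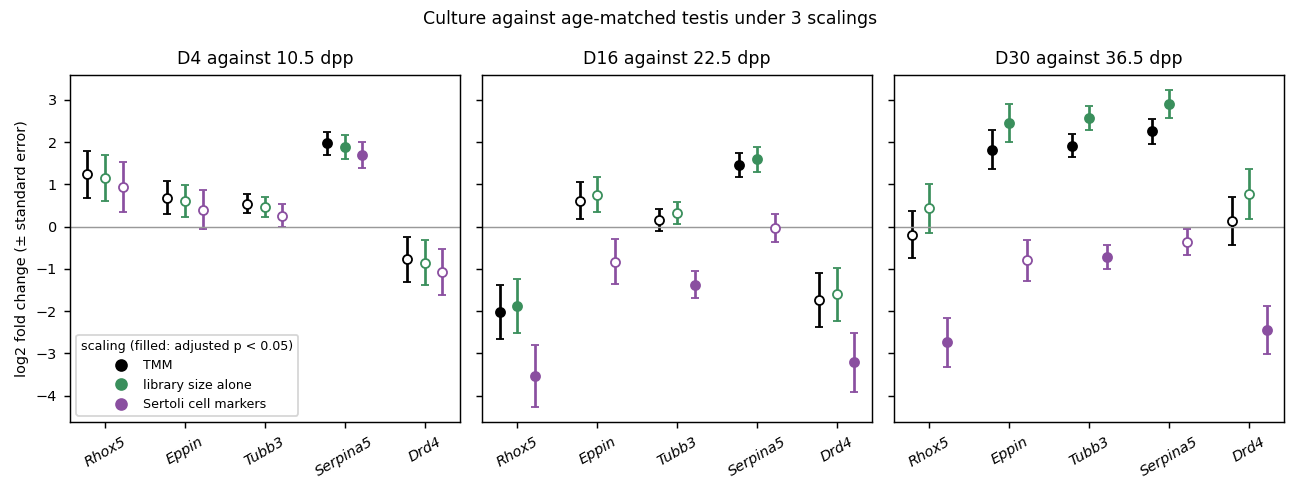
Log2 fold change of each gene in culture against the age-matched testis under TMM scaling (black), library size alone (green) and scaling to 8 Sertoli cell markers (purple), with standard errors from edgeR. Filled points have an adjusted p under 0.05. At D30 Eppin, Tubb3 and Serpina5 are above 0 under TMM and library size and below 0 against the Sertoli cell markers, while at D4 no gene changes side.

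Within culture no member passed the test between successive days. From D4 to D16 and from D16 to D30, 0 of 5 were called by edgeR, where 23.9% (5.48% lower from D4 to D16) and 1.79% of all genes were called. At an unadjusted p under 0.05 there was 1 in each step, Tubb3 (log2 differences of -0.72 and 0.67), and DESeq2 called 1 and 0. Serpina5 at D4, D16 and D30 averaged 915 ± 40.4 (SD, n = 3), 786 ± 67.5 (n = 2) and 991 ± 122 CPM (n = 4). Drd4 averaged 21.0 ± 4.00, 18.4 ± 2.04 and 15.5 ± 1.37 CPM over the same days.

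Ordered by mean CPM, Serpina5 and Eppin had their 3 culture days at the top and 36.5 dpp at the bottom. For Serpina5 the neighbours D4 and D16, and D16 and 22.5 dpp, did not overlap, and the other neighbours in the order did. For Eppin the single gap lay between D4 and 10.5 dpp. For Tubb3 it lay between 22.5 and 36.5 dpp, and all other neighbours overlapped. For Rhox5 the order was 22.5 dpp, D30, 36.5 dpp, D4, D16, 10.5 dpp and 6.5 dpp, with overlap between D30 and 36.5 dpp, 36.5 dpp and D4, and D16 and 10.5 dpp. For Drd4 it was 22.5 dpp, 10.5 dpp, D4, D16, D30, 6.5 dpp and 36.5 dpp, with gaps between 10.5 dpp and D4 and between D16 and D30.

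The difference between culture and testis was compared between stages as a difference of contrasts, and these contrasts share libraries with the comparisons above. The culture effect on Rhox5 was lower at 22.5 dpp than at 10.5 dpp by a log2 difference of -3.26 (standard error 0.84, adjusted p = 0.0223), 1 of 5 members called where 9.61% of all genes were (5.26% higher and 4.36% lower). That call was lost without 10.5 dpp replicate 1, 10.5 dpp replicate 3, D4 replicate 3 or D16 replicate 2 (adjusted p up to 0.0988) and with the library labelled 6.5 dpp fresh replicate 1 kept (adjusted p = 0.232), and it was -4.47 (adjusted p = 0.00273) when scaled to the Sertoli cell markers, where 43.9% of all genes were called lower. The culture effect on Tubb3 was higher at 36.5 dpp than at 22.5 dpp by 1.76 (standard error 0.36, adjusted p = 0.0034) and than at 10.5 dpp by 1.38 (standard error 0.34, adjusted p = 0.0033), where 20.1% and 46.4% of all genes were called. Scaled to the markers these became 0.67 (adjusted p = 0.242) and -0.97 (adjusted p = 0.034), with 25.5% and 71.7% of all genes called lower.

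Other ways of calling gave like counts for most steps. DESeq2 called 1 member at D4 (11.2% of all genes), 3 at D16 (31.5%) and 3 at D30 (67.3%) against the age-matched testis. In vivo it called 1 from 6.5 to 10.5 dpp (3.57%), 1 from 10.5 to 22.5 dpp (62.9%) and 2 from 22.5 to 36.5 dpp (48.8%). It called 4 at D4 against 6.5 dpp (26.7%), 1 from D4 to D16 (27.5%), 0 from D16 to D30 (3.74%), and 1, 1 and 2 in the differences of contrasts (15.4%, 21.7% and 50%). A stricter threshold by edgeR, a log2 change of at least 2 with an adjusted p of at most 0.001, left Serpina5 at D30 (21.3% of all genes), Rhox5 from 10.5 to 22.5 dpp (18.4%), and Rhox5 and Serpina5 at D4 against 6.5 dpp (2.41%). It left no member at D4 (1.07%) or D16 (1.42%) against the age-matched testis, from 6.5 to 10.5 dpp (0.0208%), from 22.5 to 36.5 dpp (9.9%), from D4 to D16 (7.86%), from D16 to D30 (0.00519%) or in the differences of contrasts (0.431%, 1.67% and 9.52%).

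Freezing was compared within 6.5 dpp and within D30 and averaged. By edgeR 0 of 5 members were called, as were 0% of 19758 genes tested in that fit. At an unadjusted p under 0.05 there were 2, Rhox5 with a log2 difference of -1.35 (standard error 0.57, adjusted p = 0.679) and Drd4 with -1.01 (standard error 0.47, adjusted p = 0.679), and DESeq2 called 0 (0.0465% of all genes). At D30 the Rhox5 level of the CSF library (2.26 CPM) lay within the range of the fresh libraries (1.31 to 3.02 CPM). Its Drd4 level (13.6 CPM) lay below theirs (15.8 to 16.8 CPM). At 6.5 dpp the fresh library lay above every CSF library for both genes. It had 0.27 CPM of Rhox5 against 0 to 0.083 CPM, and 27.9 CPM of Drd4 against 2.63 to 14.2 CPM. Each arm rests on a single library at 1 of the 2 stages.

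**Figure D4:**
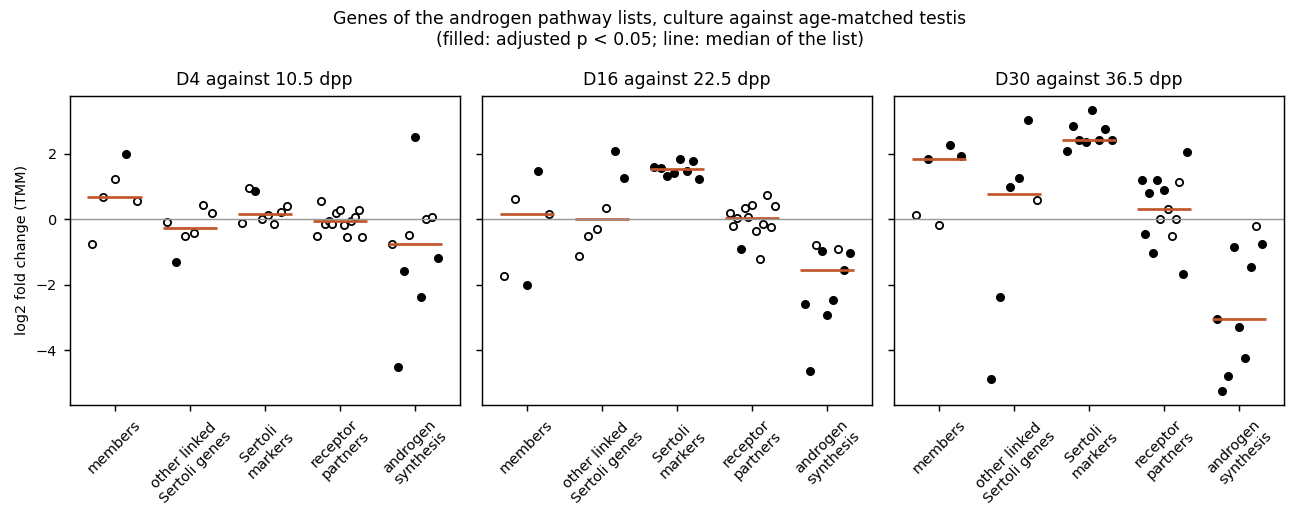
Log2 fold change (edgeR, TMM scaling) of each gene of 5 lists in culture against the age-matched testis, with filled points for an adjusted p under 0.05 and a line at each list's median. The 8 Sertoli cell markers lie at 1.23 to 1.82 at D16 and 2.07 to 3.34 at D30, and genes of androgen synthesis reach -5.23 (Cyp17a1 at D30).

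Upstream of the receptor, most genes of the androgen synthesis list were lower in explants. Besides genes of synthesis this list holds Lhcgr, the receptor for luteinizing hormone, and Insl3, a peptide hormone gene of Leydig cells. Of 9 genes, 4 were called lower and 1 higher at D4, 7 lower at D16 and 8 lower at D30, where 3.18%, 11.8% and 35% of all genes were called lower. The list had median log2 differences of -0.77, -1.54 and -3.04 against -0.01, -0.08 and -0.03 over all genes tested. Cyp17a1, the lyase on the way to androgens, had 10.8, 14.3 and 18.0 CPM at D4 against 334, 377 and 341 CPM at 10.5 dpp, and its log2 differences were -4.52, -4.64 and -5.23 at D4, D16 and D30 (adjusted p of at most 6.56e-07). Hsd3b6, the 3 beta-hydroxysteroid dehydrogenase of adult Leydig cells, had 3.41, 5.88 and 5.36 CPM at D4 against 0.61, 1.47 and 0.67 CPM at 10.5 dpp and was the gene called higher (2.51, adjusted p = 0.0031). The 6 Leydig cell markers, all of them among these 9 genes and so no separate readout, summed to 312 to 537 CPM at D4 against 1015 to 1171 CPM at 10.5 dpp and to 325 to 600 CPM at D30 against 1571 to 1947 CPM at 36.5 dpp. With library size alone 5 of 9 were called lower at D30. Against the Sertoli cell markers 9 of 9 were called lower at D16 and D30, where 74.6% and 87.3% of all genes were.

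Between hormone and targets stand proteins that chaperone or assist the receptor, such as the immunophilins Fkbp4 and Fkbp5 and the coactivators Ncoa1 and Ncoa2. Of 13 such genes edgeR called 0 at D4 (2 at an unadjusted p under 0.05, and 2 by DESeq2), 1 lower at D16 and 5 higher and 3 lower at D30. Over all genes tested it called 8.1%, 25.8% and 67.4% at these days. Fkbp5, itself an androgen-induced gene in many tissues, had log2 differences of -0.14 (adjusted p = 0.853) at D4 and 0.04 (adjusted p = 0.911) at D16 and a rise of 0.79 (adjusted p = 0.0086) at D30. The coactivator Tgfb1i1 rose by 2.05 at D30 (adjusted p = 1.3e-06) and the SUMO ligase Pias1 fell by 1.68 (adjusted p = 3.1e-07). Against the Sertoli cell markers, all 13 were called lower at D30, the 5 that rose with TMM scaling included, as were 87.3% of all genes.

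Other genes linked to androgen in Sertoli cells went in both directions. Of 6, 1 was called lower at D4, 2 higher at D16, and 3 higher and 2 lower at D30, where 8.1%, 25.8% and 67.4% of all genes tested were called. The tight junction gene Cldn3 fell by 1.32 at D4 (adjusted p = 0.033) and by 2.39 at D30 (adjusted p = 1.5e-05), when it had 7.68 to 16.5 CPM against 30.8 and 55.4 CPM. Ocln, the tight junction protein occludin, rose by 2.08 at D16 (adjusted p = 0.00018) and 3.01 at D30 (adjusted p = 1.6e-06). Against the Sertoli cell markers 0 of the 6 were called higher at D30 and 5 were called lower, where 0.935% and 87.3% of all genes were.

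Relatives of the members in the same gene family or cluster were counted beside them. Over all genes tested, 27.9% were called lower at 22.5 than at 10.5 dpp, and 32.4% higher and 35% lower at D30. Of 8 further Rhox genes 5 were tested, and 4 of them (Rhox1, Rhox8, Rhox10 and Rhox13) were called lower at 22.5 than at 10.5 dpp, by -1.38 to -4.32, the step in which Rhox5 rose. Against the Sertoli cell markers 1 of these 5 was called higher and 1 lower, where 76.4% and 1.9% of all genes were. At D30 the same 4 were called higher than at 36.5 dpp and Rhox11 lower, and all 5 were called lower against the markers, as were 87.3% of all genes. Rhox8, also a Sertoli cell gene, had 35.4 to 38.4 CPM at 10.5 dpp and 4.75 to 9.17 CPM at 22.5 dpp.

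Of 11 further clade A serpins 7 were tested, and 5 were called higher at D4, as Serpina5 was, under each of 4 scalings. With TMM scaling 4.92% of all genes tested were called higher at D4. Some of these serpins lay near the floor at 10.5 dpp, where Serpina3g had 1 to 4 counts per library, Serpina6 3 to 4 and Serpina10 1 to 2. At D4 they had 82 to 202, 17 to 21 and 8 to 16 counts. Serpina3n, an acute phase protease inhibitor, had 127, 177 and 165 CPM at D4 against 0.65, 1.11 and 0.84 CPM at 10.5 dpp (log2 rise 7.59, adjusted p = 1.3e-08). Of 7 further beta tubulins 6 were tested, with 3 called higher and 3 lower at D30. Tubb5 rose by 2.16 at D30, close to Tubb3, while Tubb6 fell by 1.70. Of 12 genes of the WFDC cluster beside Eppin 9 were tested, and 1 was called lower at D4, 1 higher at D16, and 3 higher and 2 lower at D30. Of the other 4 dopamine receptors 2 were tested, and Drd2 (0.88 to 2.15 CPM at D30 against 6.71 and 8.69 CPM at 36.5 dpp) and Drd5 were called lower at D30.

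Over the 21 libraries, the members correlated unevenly on log2(CPM + 0.5). The highest Pearson correlation was 0.883 between Eppin and Serpina5, followed by 0.718 between Tubb3 and Serpina5, and the lowest was -0.037 between Rhox5 and Tubb3. The genes most like Serpina5 were Gm2a (0.989), Tspan17 and Tmem255a (both 0.977), and those most like Tubb3 were Plat (0.974) and Syngr2 (0.960). Those most like Eppin were Tdrp (0.957), Smim10l2a (0.942) and 2700046A07Rik (0.924). Those most like Rhox5 were Fcgbp (0.944) and the meiotic genes Sycp2 (0.933) and Hfm1 (0.930). Drd4 had the loosest company, with Mycs at 0.824, Cbln3 at 0.802 and Ddx24 at 0.779. The libraries share their stage, so these values describe shared courses over age and culture.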

How the data were processed

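The deposited table holds raw counts of reads per gene. The authors extracted RNA with poly(A) selection, prepared stranded libraries, sequenced single-end reads, aligned them to GRCm38 with STAR 2.7.3a and counted them with HTSeq 0.12.4 in intersection-nonempty mode. The strand setting is not given in the sources used here. Of the gene identifiers 27373 matched the annotation, and 0.0207% of counts lie on the others.

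CPM was computed on library totals, and CPM per kb on the union of GENCODE exons. Tests used edgeR 4.0.16 in R 4.3.3 (quasi-likelihood F test, TMM factors, filterByExpr, 7 stage groups, CSF with fresh, Benjamini-Hochberg adjustment over all genes tested, called at an adjusted p under 0.05). For freezing, fresh and CSF were separate groups (9 in all). Alternatives were library size alone, RLE factors, scaling to the median ratio of 8 Sertoli cell markers, no filter, at least 1 CPM in 2 libraries, DESeq2 1.42.0, a replicate block, fresh libraries only, only the groups compared, the left-out library kept, a threshold of 2 on the log2 scale with an adjusted p of at most 0.001, and each library left out. On simulated data for D30 against 36.5 dpp, with 200 of 19255 genes changed 4-fold, 65.5% were called and 7 unchanged genes were called. For the change in culture effect from 22.5 to 36.5 dpp 32% were called, and for freezing 78.5%, with 2 unchanged genes called in each. So few changed genes do not show how the scaling behaves at D30, where 67.4% of all genes were called. A floor of 3 counts per library marks genes not detected, and covers counting error only. Promoter letters are from RefSeq (GRCm38.p6).

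The genes named are the 5 members, any gene of the 17 lists and, for each member, the 3 genes most like it, of which 1 is not reported here. Members and lists were chosen with earlier results of these data known.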

Additional observations from a re-analysis of the deposited data

Results flagged for a closer look

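The culture effect on Rhox5 differed between stages by a test of the difference itself, with a log2 difference of -3.26 between 22.5 and 10.5 dpp. The same test gave differences of 1.76 (36.5 against 22.5 dpp) and 1.38 (36.5 against 10.5 dpp) for Tubb3. In the left-out library labelled 6.5 dpp fresh replicate 1, Rhox5 had 0.717 CPM, Eppin 89.8 CPM and Serpina5 633.5 CPM, each above every other 6.5 dpp library. In the 10 groups of at least 4 libraries tested, no member had a library standing apart by Dixon's test, which picks out about 1 group in 20 by chance.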

How the results depend on the processing

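All alternatives were chosen with the design and all were run, and none was added later. The number of members called (of 5) was 1 at D4 against 10.5 dpp, with 4 when only the groups compared were fitted and 0 at the strict threshold (log2 2, adjusted p 0.001). It was 2 at D16 against 22.5 dpp, with 0 when the library labelled 6.5 dpp fresh replicate 1 was kept, 0 at the strict threshold and 1 to 3 with 1 library left out. It was 3 at D30 against 36.5 dpp, with 1 at the strict threshold. Counts within 1.5 times the reported one are not listed, but an equal count can hide a turn: under marker scaling the 3 called at D30 were all lower (Rhox5, Drd4 and Tubb3), as were the 3 called at D16. RLE factors, the CPM filter, DESeq2, fresh libraries and only the groups compared also gave 3 at D16. For 10.5 against 6.5 dpp it was 0, with 1 under library size alone, 1 under the CPM filter, 1 by DESeq2 and 0 to 2 with 1 library left out. For 22.5 against 10.5 dpp it was 1, with 2 under library size alone, 5 under Sertoli cell marker scaling and 2 in fresh libraries. For 36.5 against 22.5 dpp it was 2, with 4, 0 and 0 under library size alone, marker scaling and the strict threshold, and 1 to 3 with 1 library left out. For D4 against 6.5 dpp it was 4, with 2 in fresh libraries and 2 at the strict threshold. For D16 against D4 it was 0, with 1 under library size alone, DESeq2, fresh libraries and only the groups compared, and 0 to 1 with 1 library left out. For the change in culture effect from 10.5 to 22.5 dpp it was 1, with 4 under marker scaling, 0 with the left-out library kept, 0 at the strict threshold and 0 to 1 with 1 library left out. From 22.5 to 36.5 dpp it was 1, with 5 under library size alone, 0 under marker scaling, 2 in fresh libraries, 2 with only the groups compared, 0 at the strict threshold and 1 to 2 with 1 library left out. From 10.5 to 36.5 dpp it was 1, with 3, 3, 2, 2, 2 and 0 under library size alone, marker scaling, DESeq2, fresh libraries, only the groups compared and the strict threshold, and 1 to 2 with 1 library left out.

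Scaling to the Sertoli cell markers turned 19 of 65 log2 values. At D16 against 22.5 dpp these were Eppin (-0.83), Tubb3 (-1.38) and Serpina5 (-0.037). At D30 against 36.5 dpp they were Eppin (-0.80), Tubb3 (-0.71), Serpina5 (-0.37) and Drd4 (-2.44). In vivo they were Tubb3 at 22.5 against 10.5 dpp (1.31), and Rhox5 (0.28), Eppin (0.17) and Serpina5 (0.67) at 36.5 against 22.5 dpp. At D16 against D4 they were Rhox5 (0.12), Serpina5 (0.23) and Drd4 (0.30). In the change in culture effect they were Serpina5 from 22.5 to 36.5 dpp (-0.33), and Eppin (-1.20), Tubb3 (-0.97), Serpina5 (-2.07) and Drd4 (-1.37) from 10.5 to 36.5 dpp. Library size alone turned Rhox5 at D30 (0.43), Eppin at 22.5 against 10.5 dpp (-0.14) and the Eppin change in culture effect from 10.5 to 22.5 dpp (0.15). RLE factors and DESeq2 turned Drd4 at D30 (-0.13 and -0.12). Fresh libraries alone turned Tubb3 (-0.034) and Serpina5 (-0.0537) at 10.5 against 6.5 dpp and Drd4 at D4 against 6.5 dpp (-0.36). Keeping the left-out library turned Serpina5 at 10.5 against 6.5 dpp (-0.28) and Eppin under CSF (-0.27).

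With 1 library left out, Drd4 ran from -0.27 to 0.020 (D16 against D4) and from -0.11 to 0.39 (D30 against 36.5 dpp). Eppin ran from -0.29 to 0.35 (CSF), -0.45 to 0.46 (D16 against D4), -0.088 to 0.82 (D30 against D16) and -0.59 to 0.32 (change in culture effect from 10.5 to 22.5 dpp). Rhox5 ran from -0.35 to 0.022 (D30 against 36.5 dpp). Deviations of same-numbered libraries from their group means had a median correlation of 0.02 (52 pairs, -0.72 to 0.72). For libraries with other numbers it was 0 (102 pairs, -0.75 to 0.75). With so wide a spread in small groups, these medians cannot decide whether the numbers pair libraries. The replicate block turned Eppin in the change in culture effect from 10.5 to 22.5 dpp (0.014) and changed no call. Except where the setting itself removes libraries or sets the threshold, the cause of these changes was not tested. Rhox5 at 6.5 dpp (0 to 13 counts) is the value most limited by depth.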

Other observations

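Markers of other somatic and germ cells were counted against the age-matched testis, where 8.1%, 25.8% and 67.4% of all genes tested were called at D4, D16 and D30. The macrophage, endothelial, peritubular and spermatocyte lists hold 4 markers each. Of the 6 Leydig cell markers, all counted already on the androgen synthesis list, 3, 5 and 6 were called lower at D4, D16 and D30. Of the macrophage markers 3 were called lower at D4 and 3 higher at D30. Of the endothelial markers 2 were called higher and 1 lower at D4, 3 higher at D16, and 3 higher and 1 lower at D30. Of the peritubular markers 1 was called lower at D4 and 3 higher at D30. Of the spermatocyte markers 1 was called higher at D4, and all 5 spermatid markers were called lower at D30. No spermatocyte marker was called at D16 or D30, no macrophage or peritubular marker at D16 and no spermatid marker at D4 or D16. The part of these shifts in the members' values was not tested.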
